A study of Homo sapiens with 5 samples.

Results

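Lysosomes are acidic compartments in which cells take apart proteins, glycans and lipids. The transcripts of 28 genes for lysosomal membrane proteins and hydrolases were followed in HCT116 cells, a human colorectal cancer cell line, after SP1, SP3 or both were knocked down. The genes are a list made by name and function, drawn up with earlier results of these data known: 7 membrane proteins, 7 glycosidases, 8 genes made up of the cathepsins and the peptidase TPP1, and 6 lipid hydrolases or lipid-binding activators. All 28 were found among the 20030 gene symbols of the deposited tables. The 5 RNA libraries were 2 controls and 1 each of cells with SP1 knockdown, SP3 knockdown and knockdown of both, here called control 1, control 2, SP1 siRNA, SP3 siRNA and both siRNAs. All came from the same cell line, with no other treatment named. The siRNA sequences, their dose and time, what the control cells received, and whether the libraries came from separate cultures were not given in the sources used here.

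SP1 and SP3, transcription factors with zinc fingers, share a DNA-binding preference for GC-rich boxes with the core GGGCGG, which many promoters of broadly expressed genes carry. Many lysosomal genes are under the factors TFEB and TFE3, which bind an E-box with the core CACGTG. Hydrolases are made in the endoplasmic reticulum, tagged with mannose 6-phosphate in the Golgi, carried to the lysosome by sorting receptors, and work at the low pH that the vacuolar ATPase (V-ATPase) sets up. Highly glycosylated membrane proteins line the inside of the lysosomal membrane and shield it from these enzymes.

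The deposited values were FPKM, fragments per kilobase of transcript scaled to library depth, which allow levels to be set side by side between genes. Whole reads recovered from these values gave library denominators of 14678068 to 15970519 reads, and each of the 28 genes had 144 to 28015 reads in each library. SP1 stood at 42.9% of the control level (39.1 to 46.9%) with the SP1 siRNA, a range that is an exact 95% interval for counting error alone, at 74.5% with the SP3 siRNA and at 43.6% with both. SP3 stood at 109%, 41.3% and 50.7% of control in the same order, so each target was lower where it was named. Between the controls, 21 of the 28 genes were higher in control 2, by a median log2 difference of 0.08 with a range of -0.16 to 0.22, against a median of -0.03 over the tested genes. The epithelial markers EPCAM, CDH1, KRT8, KRT18 and KRT19 were expressed in all 5 libraries, whereas VIL1, an intestinal brush border gene, was at 0.0233 and 0.0230 FPKM in the controls and listed at 0 in the knockdown libraries. The controls also held low levels of 9 leukocyte markers, summed to 20.2 and 21.5 FPKM, against 2.63 with the SP1 siRNA, 0.966 with the SP3 siRNA and 1.77 with both. LYZ made up 11.1 and 12.2 FPKM of the control sums and was at 0.258, 0.124 and 0.0449 in the knockdown libraries, and TYROBP and CD163 were at 0 there. ITGAM was the exception, at 0.632 and 0.572 FPKM in the controls and higher with the SP1 siRNA at 1.37, most of that sum, with 0.233 and 0.478 in the other two. The part of these markers in the results below was not tested. Summed fibroblast markers were at 4.39 to 9.03 FPKM, nearly all COL1A1, and summed endothelial markers at 0.139 to 0.428 FPKM.

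The stretches of 250 bases upstream of the transcription start, from RefSeq (GRCh38.p14), were searched for 3 motifs on both strands, each counted on its own even where matches share letters. The table held 22 of the 28 genes and 9273 of the genes tested, and the first window listed for a gene was used. The SP box core GGGCGG was present in 18 of the 22 windows (81.8%), and in 6456 (69.6%) of all those windows. The E-box core CACGTG was present in 8 of 22 (36.4%), and in 843 (9.09%) of all, and reads the same on both strands. CCAAT, the box bound by NF-Y, was present in 5 of 22 (22.7%), and in 3269 (35.3%) of all. The GC content of the 22 windows ran from 46.8% to 81.2%, and motif counts follow base composition. A match describes these letters and is not a binding site.

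The windows of 5 genes on which the results below turn are shown 5′ to 3′ in the direction of the gene, with GGGCGG, its reverse complement CCGCCC, and CACGTG in capitals. LAMP1 (chr13:113296989-113297238, plus strand) and GM2A (chr5:151252935-151253184, plus strand) had the largest falls with the SP1 siRNA. NEU1 (chr6:31862822-31863071, minus strand) had the largest fall with the SP3 siRNA, PPT1 (chr1:40097253-40097502, minus strand) the largest rise with either siRNA, and CTSZ (chr20:59007255-59007504, minus strand) the most negative difference between the 2 single knockdowns. They are set side by side because the LAMP1 window held 5 copies of CACGTG and none of GGGCGG, and the CTSZ window 5 copies of GGGCGG and none of CACGTG. The GM2A and PPT1 windows each held 2 copies of GGGCGG and none of CACGTG. The NEU1 window held 1 copy of each.
LAMP1: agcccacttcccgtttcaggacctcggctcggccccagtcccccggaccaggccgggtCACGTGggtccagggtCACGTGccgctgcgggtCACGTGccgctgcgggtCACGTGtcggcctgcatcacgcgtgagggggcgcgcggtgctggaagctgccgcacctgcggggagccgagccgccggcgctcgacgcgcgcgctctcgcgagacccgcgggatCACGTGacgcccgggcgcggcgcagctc
GM2A: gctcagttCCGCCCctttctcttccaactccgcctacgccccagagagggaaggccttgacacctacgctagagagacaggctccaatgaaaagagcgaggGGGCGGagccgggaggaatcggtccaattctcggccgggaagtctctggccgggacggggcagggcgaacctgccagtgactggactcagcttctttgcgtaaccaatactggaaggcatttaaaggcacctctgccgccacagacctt
NEU1: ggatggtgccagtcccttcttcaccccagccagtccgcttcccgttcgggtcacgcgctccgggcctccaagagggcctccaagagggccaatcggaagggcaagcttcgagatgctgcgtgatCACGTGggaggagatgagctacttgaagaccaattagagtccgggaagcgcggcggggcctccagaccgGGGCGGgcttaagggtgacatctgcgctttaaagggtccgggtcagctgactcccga
PPT1: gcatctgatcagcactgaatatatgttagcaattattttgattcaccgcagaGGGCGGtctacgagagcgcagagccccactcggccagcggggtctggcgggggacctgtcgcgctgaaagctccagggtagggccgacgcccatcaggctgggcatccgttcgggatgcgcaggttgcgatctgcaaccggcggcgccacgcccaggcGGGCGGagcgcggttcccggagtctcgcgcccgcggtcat
CTSZ: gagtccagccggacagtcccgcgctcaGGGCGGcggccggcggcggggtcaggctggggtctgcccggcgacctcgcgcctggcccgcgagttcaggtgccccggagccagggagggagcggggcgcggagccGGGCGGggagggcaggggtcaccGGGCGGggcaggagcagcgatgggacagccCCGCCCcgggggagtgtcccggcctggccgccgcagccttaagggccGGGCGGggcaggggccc

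The first question was how the lysosomal transcripts stood in each knockdown against the controls. Levels spanned a wide range, from PSAP, the precursor of the saposins, at 541 and 586 FPKM in the controls, through the protease CTSB and the membrane protein LAMP1, to CTSC, the lowest of the 28 at 4.07 and 4.199 FPKM. With the SP1 siRNA 12 of the 28 genes rose and 7 fell, where rising and falling mean a limma adjusted p under 0.05 on log2(FPKM + 1). Over all 11728 genes tested 65.4% passed in either direction, 36.5% higher and 28.8% lower, against 42.9% and 25% of the 28. With the SP3 siRNA 6 rose and 15 fell, 21.4% and 53.6%, where 29.6% of all genes were called higher and 32.1% lower (61.6% in all). With both siRNAs 6 rose and 13 fell, 21.4% and 46.4%, against 31.9% and 31.1% of all genes (63% in all). The median log2 difference of the 28 was 0.07 with the SP1 siRNA (0.06 over all genes), -0.27 with the SP3 siRNA (-0.02 over all) and -0.18 with both (0.01 over all). The 3 comparisons share the same controls, and each knockdown is 1 library whose spread was taken to be that of the controls.

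**Figure D1:**
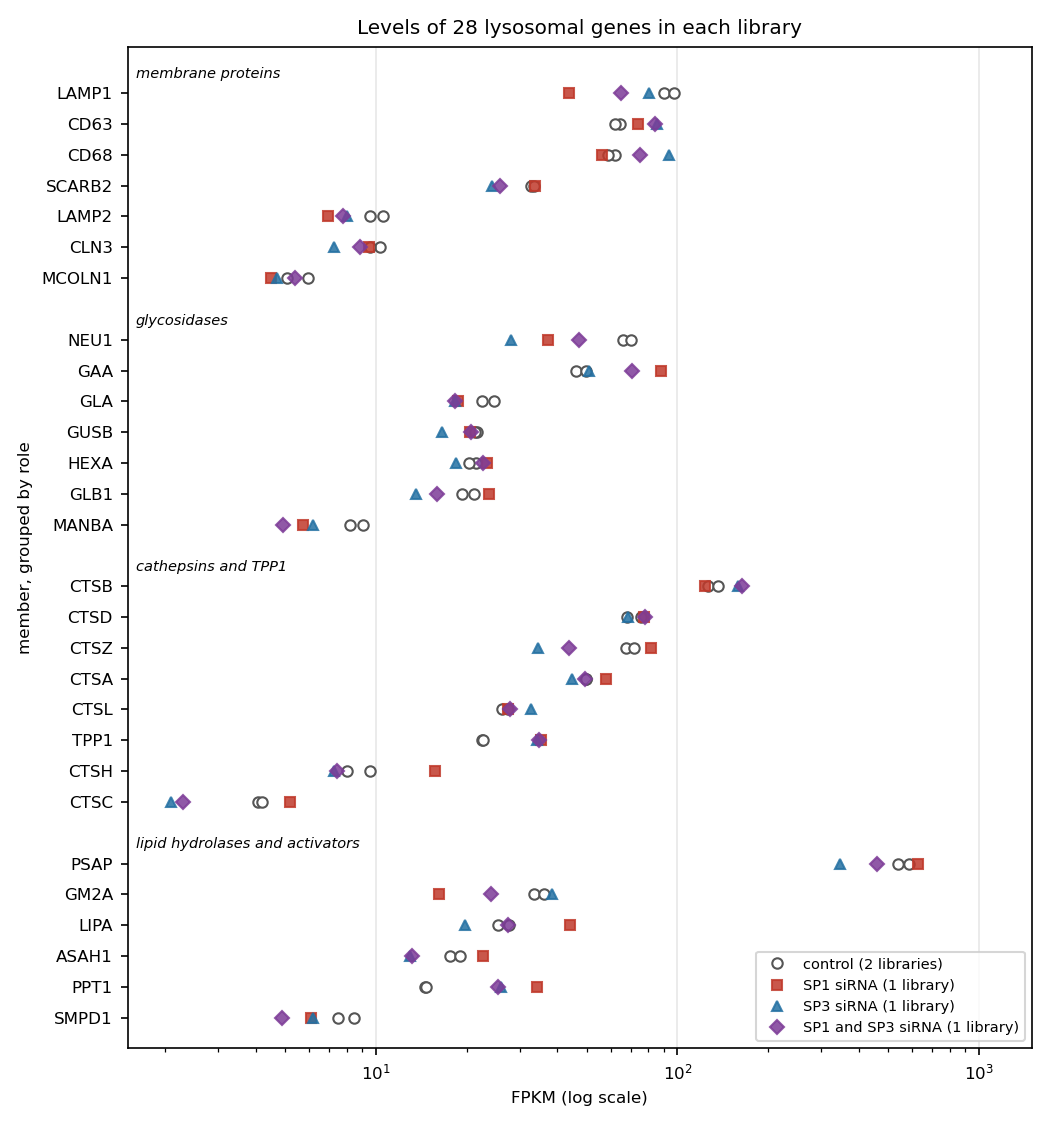
FPKM on a log axis for each of the 28 genes, grouped by role, with 1 point per library (2 controls and 1 each of SP1 siRNA, SP3 siRNA and both). The 2 control points of a gene lie close together, with PSAP furthest to the right and CTSC furthest to the left.

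Size was also counted without a test, as genes at least 1.5-fold from each control, over the 27 genes that averaged at least 5 FPKM, which leaves out CTSC. With the SP1 siRNA 5 genes were that much higher (GAA, CTSH, TPP1, PPT1 and LIPA) and 3 that much lower (LAMP1, NEU1 and GM2A), where 14.1% and 14.8% of the 7127 genes so filtered were. With the SP3 siRNA CD68, TPP1 and PPT1 were higher and NEU1, CTSZ and PSAP lower (13.6% and 12.9% of all). With both siRNAs TPP1 and PPT1 were higher and CTSZ, SMPD1 and MANBA lower (13.7% and 13.4% of all). Shares of the 27 were 18.5% and 11.1%, 11.1% and 11.1%, and 7.41% and 11.1%, in the same order as the counts.

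A linear model in which the effects of the 2 siRNAs add, and the library with both counts for each, has 2 residual degrees of freedom and gave a stricter reading. Of the 19 calls with the SP1 siRNA 3 held in it (GAA, LIPA and GM2A). Of the 21 with the SP3 siRNA 7 held (CD68, GLB1, CTSC, CTSZ, ASAH1, PSAP and LIPA). Over all 11728 genes the model made 900 calls with the SP1 siRNA and 1805 with the SP3 siRNA, against 7666 and 7225 as reported. A transcript whose 2 responses do not add takes a large error in that model, as for NEU1 (SE 0.35), PPT1 (SE 0.28) and LAMP1 (SE 0.20) here. When the FPKM were rescaled by median-ratio size factors, the median of all genes with the SP1 siRNA moved from 0.06 to -0.04. The 28 genes were then 5 higher and 11 lower, where 3453 of 11680 genes were higher and 4204 lower. Of the 12 rises, those of GAA, CTSH, TPP1, PPT1 and LIPA held, and those of CD63, GLB1, CTSA, CTSC, CTSZ, ASAH1 and PSAP did not. All 7 falls held. Over all genes, 55.9% of the calls with the SP1 siRNA were higher as deposited and 45.1% after rescaling. With no filter on low values, 0.712 prior degrees of freedom were left. Then 3 of 19, 2 of 21 and 2 of 19 calls held in the 3 comparisons. TPP1 and PPT1 held in each and CTSA with the SP1 siRNA. The error of a gene in that fit leans on how close its 2 controls lay. Their log2 differences were 0.007 for TPP1, 0.019 for PPT1 and 0.006 for CTSA.

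**Figure D2:**
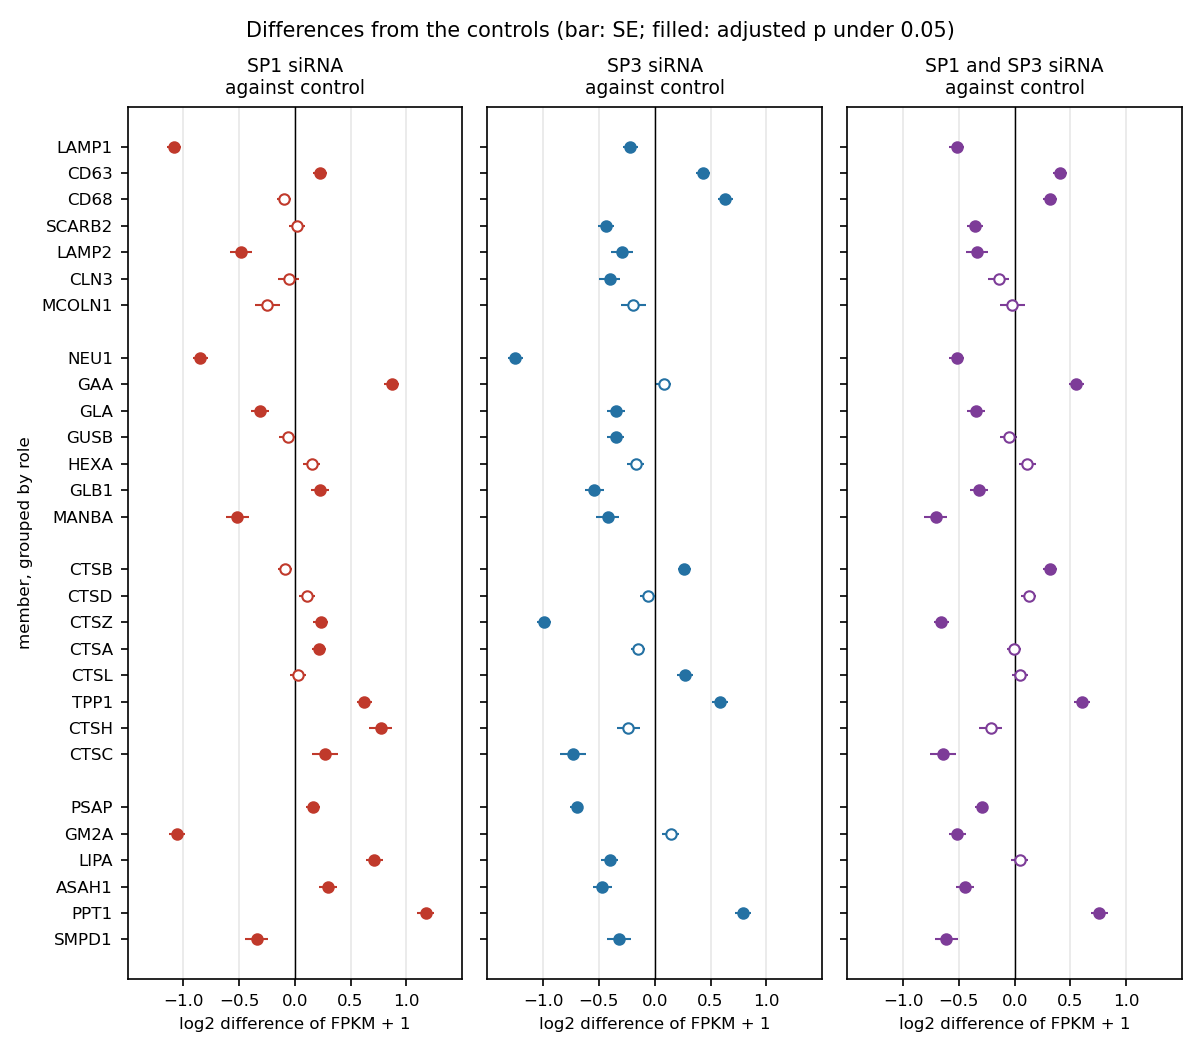
Difference from the controls on the log2(FPKM + 1) scale with its SE for the 28 genes, in 1 panel each for SP1 siRNA, SP3 siRNA and both. Filled points passed the limma threshold. LAMP1 and GM2A lie furthest to the left with the SP1 siRNA and NEU1 and CTSZ with the SP3 siRNA, whereas PPT1 and TPP1 lie right of 0 in all 3 panels.

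Of the 7 membrane proteins, 1 rose and 2 fell with the SP1 siRNA, 2 rose and 4 fell with the SP3 siRNA, and 2 rose and 3 fell with both. After rescaling the counts with the SP1 siRNA were 0 and 4, where 3453 of 11680 genes rose and 4204 fell. Over all genes 36.5% rose and 28.8% fell there as deposited. With the SP3 siRNA 29.6% of all genes rose and 32.1% fell, and with both 31.9% and 31.1%. LAMP1, an abundant glycoprotein of the lysosomal membrane, was at 89.9 and 97.3 FPKM in the controls, 43.6 with the SP1 siRNA, 80.3 with the SP3 siRNA and 65.0 with both. All 3 knockdown libraries lay below both controls, and the SP1 siRNA library lay furthest below. The fall with the SP1 siRNA left 46.6% of the control level (44.1 to 49.1%), a log2 difference of -1.08 ± 0.07 (SE, limma adjusted p = 2.45e-09), and the additive estimate of -0.75 ± 0.20 did not pass. With both siRNAs the difference was -0.52 ± 0.07 (limma adjusted p = 6.72e-06), and with the SP3 siRNA -0.22 ± 0.07, a call that did not hold after rescaling and turned to 0.12 ± 0.20 in the additive model. LAMP2, its close relative, which also serves chaperone-mediated autophagy, was at 9.56 and 10.6 FPKM in the controls, 6.92 with the SP1 siRNA, 8.004 with the SP3 siRNA and 7.75 with both. It too fell in all 3 knockdown libraries, with log2 differences of -0.48 ± 0.10, -0.30 ± 0.10 and -0.34 ± 0.10, which did not pass in the additive model with either siRNA.

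The scavenger receptor family member SCARB2, which carries glucocerebrosidase to lysosomes, was at 32.8 and 33.5 FPKM in the controls, 33.6 with the SP1 siRNA, 24.2 with the SP3 siRNA and 25.7 with both. It was within 1 FPKM of the controls with the SP1 siRNA and fell with the SP3 siRNA (-0.44 ± 0.07 SE, limma adjusted p = 7.32e-05) and with both (-0.35 ± 0.07). CLN3, the membrane protein mutated in juvenile Batten disease, was at 10.3 and 9.54 FPKM in the controls, 9.52 with the SP1 siRNA, 7.26 with the SP3 siRNA and 8.88 with both. It was called lower with the SP3 siRNA alone, with a difference of -0.40 ± 0.09 (adjusted p = 0.00164 from limma). MCOLN1, the lysosomal calcium channel TRPML1, was at 5.08 and 5.94 FPKM in the controls, 4.47 with the SP1 siRNA, 4.69 with the SP3 siRNA and 5.39 with both, and passed in none of the 3 as deposited, but was called lower with the SP1 siRNA after rescaling (-0.35 ± 0.11, limma adjusted p = 0.011). About 25.2% of the exonic bases of CLN3 in the GENCODE 29 annotation also belong to a neighbouring gene model on the same strand, so reads may be divided between them.

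CD63 and CD68 were the membrane proteins that rose. CD63, a tetraspanin of late endosomes and exosomes, was at 64.3 and 62.3 FPKM in the controls, 74.1 with the SP1 siRNA, 85.9 with the SP3 siRNA and 84.4 with both. Every knockdown library was above both controls, and CD63 rose by 0.23 ± 0.06, 0.43 ± 0.06 and 0.41 ± 0.06, although the first call did not hold after rescaling and neither single-siRNA call held in the additive model. CD68, a mucin-like protein best known as a macrophage marker, was at 61.9 and 58.7 FPKM in the controls, 56.2 with the SP1 siRNA, 94.1 with the SP3 siRNA and 75.3 with both. It was below both controls with the SP1 siRNA, with a difference of -0.10 ± 0.06 (adjusted p = 0.187 from limma, and 0.013 after rescaling), and above both with the SP3 siRNA, at 156% of the control level (148 to 164%), a rise of 0.63 ± 0.06 (limma adjusted p = 6.19e-07) that held in the additive model. The summed leukocyte markers were lower in all 3 knockdown libraries, as given above, while CD68 was higher in the 2 that received the SP3 siRNA. In bulk RNA, fewer cells of a type and less RNA per cell cannot be told apart. A gene model on the same strand covers 81.7% of the exonic bases of CD68 in GENCODE 29.

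The 7 glycosidases clip sugars from glycoproteins, glycolipids and glycogen. With the SP1 siRNA 2 rose and 3 fell, with the SP3 siRNA none rose (nor at an unadjusted p under 0.05) and 5 fell, and with both 1 rose and 4 fell. After rescaling, 1 rose and 4 fell with the SP1 siRNA, where 3453 of 11680 genes rose and 4204 fell. Of all genes as deposited, 36.5% rose and 28.8% fell with the SP1 siRNA. These shares were 29.6% and 32.1% with the SP3 siRNA, and 31.9% and 31.1% with both. NEU1, the lysosomal sialidase, was at 65.8 and 70.0 FPKM in the controls, 37.3 with the SP1 siRNA, 27.97 with the SP3 siRNA and 47.0 with both. The 3 knockdown libraries were all below the controls, and the library with both siRNAs was the highest of the 3. NEU1 fell to 54.9% of the control level (51.4 to 58.5%) with the SP1 siRNA (-0.85 ± 0.07 SE, limma adjusted p = 4.44e-08) and to 41.2% of the control level (38.3 to 44.2%) with the SP3 siRNA (-1.25 ± 0.07 SE, limma adjusted p = 8.62e-10), the largest fall of the 28 in that library. With both it fell by 0.52 on the log2 scale. In the additive model, which cannot hold such a pattern, the 2 differences were -0.17 ± 0.35 and -0.57 ± 0.35 and missed the threshold.

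GAA, the acid alpha-glucosidase that degrades glycogen and is lacking in Pompe disease, went the opposite way with the SP1 siRNA. Its levels were 46.2 and 49.8 FPKM in the controls, 88.4 with the SP1 siRNA, 50.7 with the SP3 siRNA and 70.7 with both. The 2 libraries that received the SP1 siRNA stood above the rest, and the SP3 siRNA library stood just above the controls. GAA rose to 184% of the control level (178 to 191%) with the SP1 siRNA (0.87 ± 0.07 SE, limma adjusted p = 3e-08) and by 0.55 ± 0.07 with both, while the difference of 0.08 ± 0.07 with the SP3 siRNA did not pass. The rise with the SP1 siRNA held in the additive model at 0.70 ± 0.13.

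GLB1, the acid beta-galactosidase, was at 19.2 and 21.2 FPKM in the controls, 23.8 with the SP1 siRNA, 13.6 with the SP3 siRNA and 16.0 with both. It lay above both controls with the SP1 siRNA (0.23 ± 0.08, a call lost after rescaling) and below both with the SP3 siRNA (-0.54 ± 0.08 SE, limma adjusted p = 4.23e-05) and with both (-0.32 ± 0.08), and the fall with the SP3 siRNA held in the additive model. MANBA, the beta-mannosidase, was at 8.21 and 9.08 FPKM in the controls, 5.74 with the SP1 siRNA, 6.18 with the SP3 siRNA and 4.90 with both. It was lower than the controls in all 3 knockdown libraries and lowest with both, where it stood at 56.7% of the control level (49.1 to 65.2%), a log2 difference of -0.71 ± 0.10 (limma adjusted p = 2.41e-05). GLA, the alpha-galactosidase lacking in Fabry disease, was at 22.5 and 24.6 FPKM in the controls, 18.8 with the SP1 siRNA, 18.2 with the SP3 siRNA and 18.3 with both. The 3 knockdown values lay close together, with differences of -0.31 ± 0.08, -0.35 ± 0.08 and -0.34 ± 0.08, each called lower. Neither MANBA nor GLA passed in the additive model.

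The other two glycosidases were called in at most 1 of the 3 comparisons as deposited. GUSB, the beta-glucuronidase often used as a reference gene, was at 21.7 and 21.2 FPKM in the controls, 20.5 with the SP1 siRNA, 16.6 with the SP3 siRNA and 20.6 with both, and fell with the SP3 siRNA (-0.35 ± 0.08 SE, limma adjusted p = 0.000978). After rescaling it was also called lower with the SP1 siRNA (-0.18 ± 0.08, limma adjusted p = 0.0495). HEXA, the alpha subunit of beta-hexosaminidase, was at 21.4 and 20.4 FPKM in the controls, 23.4 with the SP1 siRNA, 18.5 with the SP3 siRNA and 22.7 with both, and did not pass in any of the 3 comparisons (adjusted p from limma of 0.0917, 0.0653 and 0.221). GUSB has 11 pseudogenes named after it in GENCODE 29, and its reads may be shared with them.

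The cathepsins and TPP1 cut proteins inside the lysosome. Of these 8 genes, 5 rose and none fell (nor at an unadjusted p under 0.05) with the SP1 siRNA, 3 rose and 2 fell with the SP3 siRNA, and 2 rose and 2 fell with both. After rescaling, 2 rose and 1 fell with the SP1 siRNA, where 3453 of 11680 genes rose and 4204 fell. The shares of all genes as deposited were 36.5% higher and 28.8% lower with the SP1 siRNA. They were 29.6% and 32.1% with the SP3 siRNA, and 31.9% and 31.1% with both. CTSZ, a cysteine carboxypeptidase, was at 67.6 and 71.5 FPKM in the controls, 81.9 with the SP1 siRNA, 34.5 with the SP3 siRNA and 43.7 with both. The library with the SP1 siRNA was above both controls and the 2 with the SP3 siRNA below. CTSZ fell to 49.5% of the control level (45.8 to 53.5%) with the SP3 siRNA (-0.99 ± 0.07 SE, limma adjusted p = 6.71e-09), a call that held in the additive model (-0.95 ± 0.10), and by 0.66 ± 0.07 with both, while the rise of 0.23 ± 0.07 with the SP1 siRNA was lost after rescaling.

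CTSC, the dipeptidyl peptidase that activates granule proteases, had the same order at a lower level: 4.07 and 4.199 FPKM in the controls, 5.19 with the SP1 siRNA, 2.09 with the SP3 siRNA and 2.28 with both. It fell to 50.6% of the control level (43.9 to 58.1%) with the SP3 siRNA (-0.73 ± 0.11 SE, limma adjusted p = 5.04e-05) and by 0.64 ± 0.11 with both. The fall with the SP3 siRNA held in the additive model at -0.81 ± 0.11, while the rise with the SP1 siRNA (0.27 ± 0.11, adjusted p = 0.0476 from limma) did not. CTSH, an aminopeptidase, was at 8.04 and 9.54 FPKM in the controls, 15.6 with the SP1 siRNA, 7.27 with the SP3 siRNA and 7.40 with both. The SP1 siRNA library stood apart from the other 4, at 178% of the control level (159 to 199%), a rise of 0.77 ± 0.10 (limma adjusted p = 1.08e-05), and the values with the SP3 siRNA and with both did not pass. The additive model gave 0.45 ± 0.20 for the SP1 siRNA, which missed the threshold.

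TPP1, a tripeptidyl peptidase lacking in a form of Batten disease, was at 22.5 and 22.6 FPKM in the controls, 35.3 with the SP1 siRNA, 34.2 with the SP3 siRNA and 34.7 with both. The 3 knockdown libraries lay within each other's counting intervals, at 157% of the control level (147 to 166%), 152% of the control level (143 to 161%) and 154% of the control level (145 to 164%). Each of these rises passed, with log2 differences of 0.62 ± 0.07, 0.58 ± 0.07 and 0.60 ± 0.07 (adjusted p of 1.79e-06, 4.09e-06 and 2.78e-06 from limma), though neither single-siRNA difference passed in the additive model.

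The remaining cathepsins moved little. CTSB, the most abundant protease of the group, was at 127 and 136 FPKM in the controls, 124 with the SP1 siRNA, 158 with the SP3 siRNA and 164 with both, and rose with the SP3 siRNA (0.27 ± 0.06) and with both (0.31 ± 0.06). With the SP1 siRNA it was called lower only after rescaling (-0.21 ± 0.08). CTSL, a strong endopeptidase, was at 26.3 and 27.4 FPKM in the controls, 27.4 with the SP1 siRNA, 32.7 with the SP3 siRNA and 27.8 with both, and rose with the SP3 siRNA alone (0.27 ± 0.07). The calls with the SP3 siRNA did not hold in the additive model. CTSA, which protects NEU1 and GLB1 in a complex, was at 49.7 and 49.9 FPKM in the controls, 58.0 with the SP1 siRNA, 44.7 with the SP3 siRNA and 49.5 with both, and rose with the SP1 siRNA (0.22 ± 0.06), a call lost after rescaling. The aspartic protease CTSD was at 67.8 and 75.8 FPKM in the controls, 77.2 with the SP1 siRNA, 68.6 with the SP3 siRNA and 78.3 with both, and passed in none of the 3 comparisons. A gene model on the same strand covers 41.7% of the exonic bases of CTSD in GENCODE 29, and CTSL has 6 pseudogenes named after it.

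The 6 lipid genes cover hydrolases of lipids and the proteins that present lipids to them. With the SP1 siRNA 4 rose and 2 fell, with the SP3 siRNA 1 rose and 4 fell, and with both 1 rose and 4 fell. After rescaling, 2 rose and 2 fell with the SP1 siRNA, where 3453 of 11680 genes rose and 4204 fell. Among all genes as deposited, 36.5% rose and 28.8% fell with the SP1 siRNA. The shares were 29.6% and 32.1% with the SP3 siRNA, and 31.9% and 31.1% with both. PPT1, a thioesterase that removes palmitate from proteins, was at 14.5 and 14.7 FPKM in the controls, 34.1 with the SP1 siRNA, 26.0 with the SP3 siRNA and 25.4 with both. All 3 knockdown libraries were well above both controls, and the SP1 siRNA library was the highest. PPT1 stood at 234% of the control level (216 to 253%) with the SP1 siRNA (1.17 ± 0.07 SE, limma adjusted p = 3.69e-09), 178% of the control level (163 to 194%) with the SP3 siRNA (0.79 ± 0.07) and 174% of the control level (159 to 189.7%) with both (0.76 ± 0.07). In the additive model the single-siRNA differences were 0.66 ± 0.28 and 0.27 ± 0.28 and missed the threshold. In GENCODE 29 the actin regulator CAP1 on the opposite strand covers 23.4% of the exonic bases of PPT1, and the strandedness of the libraries is not given. CAP1, looked up after its values were seen, was at 89.8 and 90.2 FPKM in the controls, 65.0 with the SP1 siRNA, 104 with the SP3 siRNA and 94.97 with both, and its part in the PPT1 values was not tested.

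GM2A, the activator that lifts the ganglioside GM2 out of membranes for beta-hexosaminidase, was at 33.4 and 36.0 FPKM in the controls, 16.2 with the SP1 siRNA, 38.4 with the SP3 siRNA and 24.0 with both. The 2 libraries that received the SP1 siRNA were below the controls, and the SP3 siRNA library was above them. GM2A fell to 46.6% of the control level (43.3 to 50.1%) with the SP1 siRNA (-1.06 ± 0.07 SE, limma adjusted p = 1.08e-08), which held in the additive model at -0.88 ± 0.14, and to 69.1% of the control level (64.9 to 73.6%) with both (-0.51 ± 0.07). With the SP3 siRNA the difference of 0.14 ± 0.07 did not pass (adjusted p = 0.108 from limma), and after rescaling it was called higher (0.19 ± 0.08, limma adjusted p = 0.0482). LIPA, the acid lipase that frees cholesterol from its esters, had the opposite order, at 27.6 and 25.4 FPKM in the controls, 44.0 with the SP1 siRNA, 19.8 with the SP3 siRNA and 27.3 with both. It rose to 166% of the control level (157 to 176%) with the SP1 siRNA (0.71 ± 0.08 SE, limma adjusted p = 9.19e-07), fell to 74.7% of the control level (69.5 to 80.3%) with the SP3 siRNA (-0.40 ± 0.08), and with both was within the range of the controls. Both single-siRNA calls of LIPA held in the additive model, at 0.60 ± 0.12 and -0.52 ± 0.12.

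PSAP, the precursor of the saposins that activate sphingolipid hydrolases and the most abundant of the 28 transcripts, was at 541 and 586 FPKM in the controls, 630.0 with the SP1 siRNA, 346 with the SP3 siRNA and 459 with both. Its counting intervals are narrow, and the SP3 siRNA library stood at 61.4% of the control level (60.3 to 62.5%), a fall of 0.70 ± 0.06 (limma adjusted p = 8.39e-08), which held in the additive model. PSAP fell by less with both (-0.29 ± 0.06), and the rise with the SP1 siRNA (0.16 ± 0.06) was lost after rescaling. ASAH1, the acid ceramidase, was at 17.6 and 19.0 FPKM in the controls, 22.7 with the SP1 siRNA, 12.9 with the SP3 siRNA and 13.2 with both. It fell with the SP3 siRNA (-0.47 ± 0.08 SE, limma adjusted p = 0.000153, held in the additive model) and with both (-0.44 ± 0.08), and was higher with the SP1 siRNA (0.29 ± 0.08, lost after rescaling). SMPD1, the acid sphingomyelinase, was at 8.49 and 7.48 FPKM in the controls, 6.07 with the SP1 siRNA, 6.18 with the SP3 siRNA and 4.87 with both. It fell in all 3 knockdowns, with log2 differences of -0.34 ± 0.11, -0.32 ± 0.11 and -0.61 ± 0.11, and the single-siRNA calls did not hold in the additive model.

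The next question was how far the SP3 siRNA library differed from the SP1 siRNA library, a comparison that rests on 1 library a side and takes its error from the fit, whose 1 residual degree of freedom is the 2 controls. Relative to the SP1 siRNA library, 6 genes were higher and 15 lower with the SP3 siRNA, 21.4% and 53.6% of the 28, where 26.5% and 36.2% of all genes were (62.7% in either direction). The median difference was -0.30, against -0.09 over all genes, and after rescaling it was -0.14 against 0.05. Of all genes called, 42.2% were higher as deposited and 56.0% after rescaling. By role, 3 membrane proteins were higher and 2 lower, none of the glycosidases was higher (nor at an unadjusted p under 0.05) and 5 were lower, 2 cathepsins were higher and 4 lower, and 1 lipid gene was higher and 4 were lower. At least 1.5-fold, 3 of 27 genes were higher (LAMP1, CD68 and GM2A, 11.1%, against 18.2% of all) and 7 lower (GLB1, GAA, CTSH, CTSZ, ASAH1, PSAP and LIPA, 25.9%, against 17.2%).

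The most negative of these differences was that of CTSZ (-1.22 ± 0.08 SE, limma adjusted p = 3.87e-09), with 81.9 FPKM in one library and 34.5 in the other. GM2A had the most positive one (1.20 ± 0.09 SE, limma adjusted p = 1.84e-08). LIPA (-1.12 ± 0.09), CTSH (-1.01 ± 0.12) and CTSC (-1.003 ± 0.13) were lower with the SP3 siRNA, and PSAP (-0.86 ± 0.07), GAA (-0.79 ± 0.08), GLB1 (-0.77 ± 0.10) and ASAH1 (-0.76 ± 0.09) followed. LAMP1 was higher by 0.87 ± 0.08 and CD68 by 0.73 ± 0.07. Differences that did not pass were those of LAMP2, GLA, CTSD, SMPD1, TPP1, MCOLN1 and MANBA. Of these, TPP1 (-0.04 ± 0.08), GLA, SMPD1 (0.02 ± 0.12), MCOLN1 and MANBA lay within 1 SE of 0. Of the 21 calls, 18 held after rescaling, and those of HEXA, GUSB and CLN3 did not, while LAMP2 was then called higher (0.33 ± 0.11). GM2A was then at 1.36 ± 0.09 and CTSZ at -1.06 ± 0.09.

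**Figure D3:**
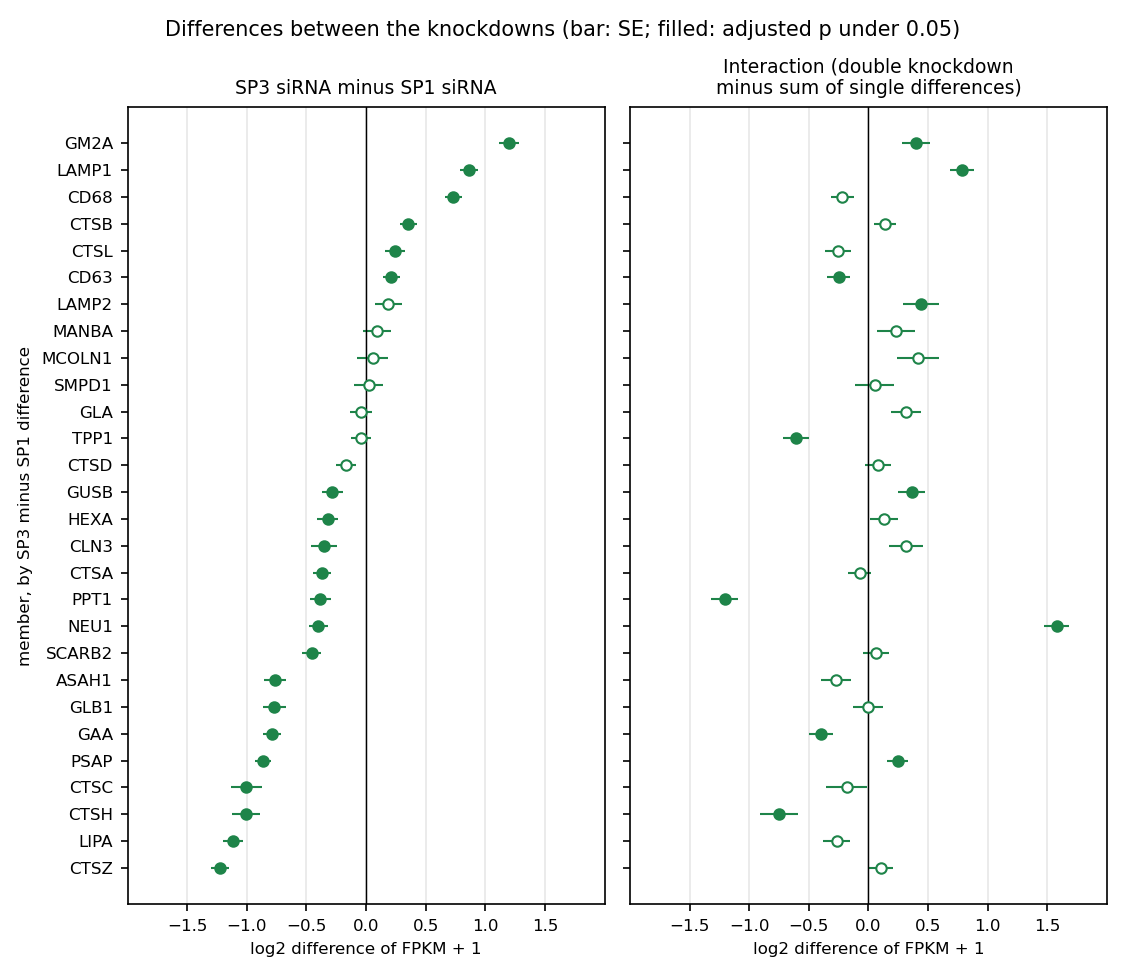
Left, SP3 siRNA minus SP1 siRNA on the log2(FPKM + 1) scale with its SE. Right, the interaction, which is the difference with both siRNAs minus the sum of the differences with each. Filled points passed the limma threshold. In the left panel values run from CTSZ, the most negative, to GM2A, and in the right panel from PPT1 to NEU1.

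The library with both siRNAs was then set against each single knockdown, again with 1 library a side. Against the SP1 siRNA library 6 genes were higher and 11 lower, 21.4% and 39.3%, where 21% and 26.4% of all genes were (47.5% in either direction). Against the SP3 siRNA library 7 were higher and 3 lower, 25% and 10.7%, where 17.9% and 15.1% of all were (33% in either direction). After rescaling, the shares of all calls that were higher moved from 44.3% to 56.8% and from 54.4% to 41.8%. Then 6 of the 28 genes were lower than with the SP3 siRNA, where 2345 of 11680 genes were. At least 1.5-fold lower than with the SP1 siRNA were CTSH, CTSZ, ASAH1 and LIPA (14.8% of 27, against 9.51% of all), and none was that much higher (10.7% of all). Against the SP3 siRNA library only NEU1 was that much higher (3.7%, against 5.68%) and only GM2A lower (3.7%, against 6.66%).

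Against the SP1 siRNA library the most negative differences with both were those of 6 genes: CTSH (-0.99 ± 0.12), CTSC (-0.92 ± 0.13), CTSZ (-0.89 ± 0.08 SE, limma adjusted p = 3.2e-07), ASAH1 (-0.74 ± 0.09), LIPA (-0.67 ± 0.09) and GLB1 (-0.55 ± 0.10). LAMP1 was higher with both than with the SP1 siRNA alone, by 0.56 ± 0.08 (limma adjusted p = 2.9e-05), and GM2A by 0.54 ± 0.09. Against the SP3 siRNA library, NEU1 was higher with both by 0.73 ± 0.08 (limma adjusted p = 8.41e-06), GAA by 0.47 ± 0.08, LIPA by 0.45 ± 0.09 and PSAP by 0.41 ± 0.07. GM2A was lower (-0.66 ± 0.09 SE, limma adjusted p = 5.07e-05), as were CD68 (-0.32 ± 0.07) and LAMP1 (-0.30 ± 0.08). The values with both siRNAs of LAMP1 and GM2A lay between their levels in the 2 single knockdowns, as did those of GAA, PSAP, CTSZ, GLB1 and LIPA.

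The interaction asks whether the difference with both siRNAs equals the sum of the 2 single differences. Each difference uses the same controls. An offset of the controls from all 3 knockdown libraries therefore also moves the interaction from 0, and this was not tested. The interaction passed for 11 of the 28 genes, 6 above 0 (21.4%) and 5 below (17.9%), where 18.5% and 21% of all genes did (39.5% in either direction). NEU1 had the largest (1.58 ± 0.10 SE, limma adjusted p = 5.93e-08). The single knockdowns were at 37.3 and 27.97 FPKM, and the 2 log2 falls of 0.85 and 1.25 did not add, since the library with both was at 47.0. PPT1 had the largest below 0 (-1.20 ± 0.11 SE, limma adjusted p = 1.44e-06), with each siRNA alone raising it at least as far as both together. LAMP1 (0.78 ± 0.10), LAMP2 (0.44 ± 0.15), GM2A (0.40 ± 0.11), GUSB (0.36 ± 0.12) and PSAP (0.24 ± 0.09) lay above 0. CTSH (-0.75 ± 0.16), TPP1 (-0.60 ± 0.11), GAA (-0.40 ± 0.10) and CD63 (-0.25 ± 0.09) lay below. For TPP1, the 3 knockdown levels of 35.3, 34.2 and 34.7 FPKM show no further rise with the second siRNA. After rescaling, 9 of the 11 calls held, and those of CD63 and PSAP did not, while those of CLN3, GLA and MCOLN1 were added.

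Other genes of the lysosomal pathway were counted from lists made by function. Over all genes tested, 36.5% rose and 28.8% fell with the SP1 siRNA, and 29.6% and 32.1% with the SP3 siRNA. With both, 31.9% rose and 31.1% fell. The counts of each list below stand beside these shares. Of 25 further lysosomal hydrolases tested (of 29 found), 8 rose and 12 fell with the SP1 siRNA, 2 rose and 15 fell with the SP3 siRNA, and 6 rose and 12 fell with both, with median log2 differences of -0.16, -0.35 and -0.21. The acid nuclease DNASE2 was at 17.8 and 17.5 FPKM in the controls, 4.41 with the SP1 siRNA, 9.20 with the SP3 siRNA and 4.07 with both, below the controls in all 3 knockdown libraries (-1.88 ± 0.09 SE, limma adjusted p = 2.15e-10, with both). The esterase SIAE, which removes acetyl groups from sialic acid, was at 5.06 and 5.41 FPKM in the controls, 12.7 with the SP1 siRNA, 3.90 with the SP3 siRNA and 6.67 with both, rose with the SP1 siRNA (1.14 ± 0.10 SE, limma adjusted p = 1.36e-07) and with both (0.30 ± 0.10), and fell with the SP3 siRNA (-0.35 ± 0.10). PLA2G15, a lysosomal phospholipase, was at 5.15 and 4.83 FPKM in the controls, 7.04 with the SP1 siRNA, 7.47 with the SP3 siRNA and 11.5 with both, and rose in all 3 knockdowns, by 1.06 ± 0.10 with both. CTSS, a cathepsin of antigen-presenting cells named after its values were seen, was at 1.58 and 1.94 FPKM in the controls, 0.143 with the SP1 siRNA, 0.0610 with the SP3 siRNA and 0.0995 with both, beside the leukocyte markers given above, whose sum was lower in the knockdown libraries while ITGAM was higher with the SP1 siRNA.

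Of 18 further lysosomal membrane proteins, 7 rose and 4 fell with the SP1 siRNA, 2 rose and 7 fell with the SP3 siRNA, and 4 rose and 6 fell with both, with medians of 0.12, -0.10 and -0.13. After rescaling, 6 rose and 6 fell with the SP1 siRNA, with a median of 0.02, where 3453 of 11680 genes rose and 4204 fell. Over all genes 36.5% rose and 28.8% fell there as deposited. The cholesterol exporter NPC1 was at 34.8 and 33.9 FPKM in the controls, 21.0 with the SP1 siRNA, 18.4 with the SP3 siRNA and 18.5 with both, and fell in all 3 knockdowns (-0.87 ± 0.07 SE, limma adjusted p = 9.62e-08, with the SP3 siRNA). LAPTM4B was at 241 and 258 FPKM in the controls, 241 with the SP1 siRNA, 153 with the SP3 siRNA and 180.1 with both. It differed by -0.70 ± 0.06 with the SP3 siRNA and by -0.47 ± 0.06 with both, each called lower. OSTM1, the partner of the chloride transporter CLCN7, was at 4.07 and 4.01 FPKM in the controls, 7.03 with the SP1 siRNA, 4.30 with the SP3 siRNA and 6.48 with both. It rose with the SP1 siRNA (0.67 ± 0.10) and with both (0.57 ± 0.10).

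The 17 V-ATPase genes encode the proton pump and its accessory proteins. With the SP1 siRNA 5 rose and 7 fell, with the SP3 siRNA 10 rose and 3 fell, and with both 7 rose and 3 fell, with medians of -0.03, 0.20 and 0.10. Over all genes 29.6% rose and 32.1% fell with the SP3 siRNA. In the additive model 2 of the 17 rose and none fell with the SP3 siRNA, where 785 of 11728 genes rose and 1020 fell. Between the single knockdowns 12 of 17 were higher with the SP3 siRNA and 1 lower (median 0.29), where 26.5% and 36.2% of all genes were. After rescaling 12 were higher and none lower, where 4101 of 11680 genes were higher and 3218 lower. ATP6V1F was at 64.3 and 62.6 FPKM in the controls, 122 with the SP1 siRNA, 137 with the SP3 siRNA and 152 with both, and rose in all 3 knockdowns (1.25 ± 0.06 SE, limma adjusted p = 1.83e-10, with both). ATP6V1G1 was at 25.3 and 24.3 FPKM in the controls, 35.7 with the SP1 siRNA, 58.1 with the SP3 siRNA and 58.5 with both, and rose in all 3, by 1.20 ± 0.07 with the SP3 siRNA. ATP6V0D1 was at 12.5 and 13.3 FPKM in the controls, 20.3 with the SP1 siRNA, 26.6 with the SP3 siRNA and 32.7 with both, and also rose in all 3, by 1.28 ± 0.08 with both. ATP6V1B2 was the exception among those named, at 28.7 and 29.1 FPKM in the controls, 15.0 with the SP1 siRNA, 24.7 with the SP3 siRNA and 18.3 with both, and fell in all 3, by 0.90 ± 0.07 with the SP1 siRNA, and the call with the SP3 siRNA was lost after rescaling.

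Of 19 genes that deliver hydrolases to lysosomes, 8 rose and 4 fell with the SP1 siRNA, 4 rose and 6 fell with the SP3 siRNA, and 7 rose and 7 fell with both. Their median with the SP1 siRNA was 0.08 as deposited and -0.03 after rescaling, so it has no settled sign. Shares of all genes that rose and fell were 36.5% and 28.8%, 29.6% and 32.1%, and 31.9% and 31.1%, in the order of the counts. SORT1, a sorting receptor for saposin precursor and sphingomyelinase, was at 8.71 and 9.32 FPKM in the controls, 9.56 with the SP1 siRNA, 3.79 with the SP3 siRNA and 4.95 with both. It fell with the SP3 siRNA (-1.06 ± 0.10 SE, limma adjusted p = 2.67e-07), and after rescaling its difference with both was -0.77 ± 0.10. GNPTAB, the enzyme that starts the mannose 6-phosphate tag, was at 9.84 and 9.74 FPKM in the controls, 8.47 with the SP1 siRNA, 4.70 with the SP3 siRNA and 5.90 with both. It fell with the SP3 siRNA (-0.92 ± 0.10) and with both (-0.65 ± 0.10). AP3D1, a subunit of the AP-3 adaptor, was at 24.6 and 24.0 FPKM in the controls, 63.9 with the SP1 siRNA, 42.1 with the SP3 siRNA and 49.0 with both, and rose in all 3 knockdowns (1.36 ± 0.07 SE, limma adjusted p = 2.9e-10, with the SP1 siRNA). The retromer subunit VPS26A was at 7.46 and 7.32 FPKM in the controls, 14.4 with the SP1 siRNA, 13.3 with the SP3 siRNA and 16.2 with both, and rose in all 3 knockdowns, by 0.88 ± 0.09, 0.77 ± 0.09 and 1.04 ± 0.09.

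The TFE factors and the lysosomal mTORC1 machinery, which senses amino acids at the lysosomal surface, had 14 tested genes (of 16 found). With the SP1 siRNA 6 rose and 5 fell, where 36.5% and 28.8% of all genes did. With the SP3 siRNA 6 rose and 1 fell, against 29.6% and 32.1% of all. With both 8 rose and 3 fell, against 31.9% and 31.1%. LAMTOR1, the membrane anchor of the Ragulator complex, was at 24.0 and 20.4 FPKM in the controls, 39.1 with the SP1 siRNA, 37.7 with the SP3 siRNA and 45.6 with both. It rose in all 3 knockdowns, by 0.79 ± 0.09, 0.74 ± 0.09 and 1.01 ± 0.09. LAMTOR2, which sits in the same complex, was at 31.0 and 32.5 FPKM in the controls, 15.9 with the SP1 siRNA, 29.7 with the SP3 siRNA and 24.8 with both. It fell with the SP1 siRNA (-0.96 ± 0.07 SE, limma adjusted p = 2.85e-08) and with both (-0.34 ± 0.07). LAMTOR3 was at 5.68 and 5.57 FPKM in the controls, 4.15 with the SP1 siRNA, 8.54 with the SP3 siRNA and 7.26 with both. It rose by 0.53 ± 0.10 with the SP3 siRNA and by 0.32 ± 0.10 with both, and fell with the SP1 siRNA (-0.36 ± 0.10). The GTPase RRAGA was at 16.1 and 16.1 FPKM in the controls, 18.6 with the SP1 siRNA, 21.5 with the SP3 siRNA and 25.1 with both. RRAGA rose by 0.61 ± 0.08 with both, and after rescaling by 0.44 ± 0.08 with the SP3 siRNA. TFEB and TFE3, named after their values were seen because many lysosomal genes are their targets, were both expressed. TFEB was at 1.85 and 1.84 FPKM in the controls, 2.21 with the SP1 siRNA, 1.82 with the SP3 siRNA and 2.11 with both, and passed in none of the 3 comparisons. TFE3 was at 25.6 and 25.1 FPKM in the controls, 17.9 with the SP1 siRNA, 23.0 with the SP3 siRNA and 19.9 with both. It differed by -0.48 ± 0.07 with the SP1 siRNA (adjusted p = 4.19e-05 from limma), and after rescaling by -0.36 ± 0.08 with both.

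Of the 4 cathepsin inhibitors, 1 rose and 2 fell with the SP1 siRNA, where 36.5% and 28.8% of all genes did. With the SP3 siRNA 2 rose and 1 fell, against 29.6% and 32.1% of all. With both 2 rose and 1 fell, against 31.9% and 31.1%. The secreted cystatin CST6 was at 48.6 and 54.9 FPKM in the controls, 44.2 with the SP1 siRNA, 114 with the SP3 siRNA and 108 with both. The 2 libraries that received the SP3 siRNA held it highest (1.13 ± 0.07 SE, limma adjusted p = 5.4e-09, with the SP3 siRNA). It also rose with both (1.05 ± 0.07) and fell with the SP1 siRNA (-0.22 ± 0.07). CSTA was at 9.78 and 12.2 FPKM in the controls, 5.27 with the SP1 siRNA, 6.65 with the SP3 siRNA and 6.83 with both, and fell in all 3, with a difference of -0.93 ± 0.11 for the SP1 siRNA. CSTB, an inhibitor of cytosolic cathepsins, was at 88.9 and 91.9 FPKM in the controls, 107 with the SP1 siRNA, 114 with the SP3 siRNA and 129.8 with both, and rose by 0.24 ± 0.06, 0.34 ± 0.06 and 0.52 ± 0.06, of which the first call was lost after rescaling and the other two held. In the additive model, the further hydrolases had 2 rises and 1 fall with the SP1 siRNA and 1 and 3 with the SP3 siRNA, the further membrane proteins 2 and 0, and 0 and 4, the V-ATPase genes 0 and 0, and 2 and 0, the delivery genes 1 and 1, and 1 and 3, the mTORC1 and TFE genes 0 and 0, and 1 and 0, and the inhibitors 0 and 0, and 1 and 0. Over all 11728 genes that model called 432 higher and 468 lower with the SP1 siRNA, and 785 and 1020 with the SP3 siRNA. Of the differences just named, those of DNASE2, SIAE and OSTM1 with the SP1 siRNA held in the additive model. With the SP3 siRNA, those of PLA2G15, LAPTM4B, ATP6V1G1, ATP6V0D1, SORT1, GNPTAB, LAMTOR3 and CST6 held. The other single-siRNA ones did not.

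**Figure D4:**
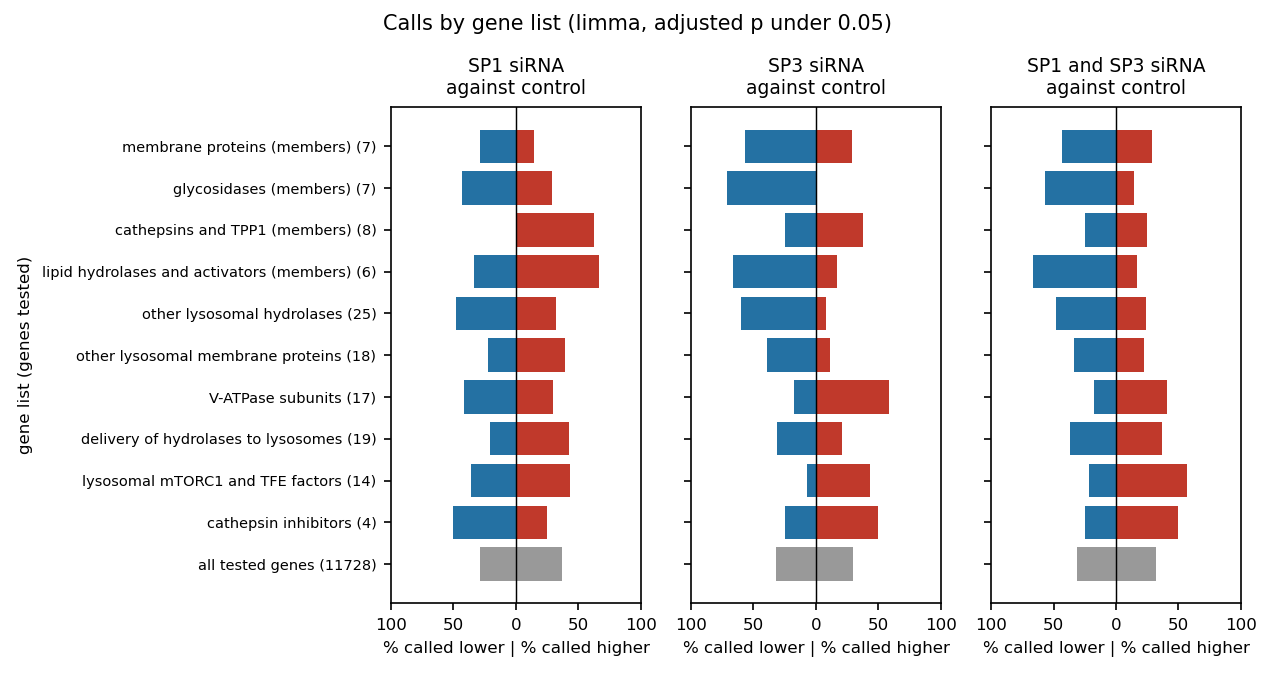
Percent of tested genes called higher or lower by limma in each gene list, in 1 panel each for SP1 siRNA, SP3 siRNA and both against the controls, with all tested genes in grey. With the SP3 siRNA, the membrane proteins, glycosidases, lipid genes, further hydrolases, further membrane proteins and delivery genes have more genes called lower than higher. All tested genes also lean lower there (32.1% against 29.6%). The cathepsins with TPP1, V-ATPase genes, mTORC1 and TFE genes and inhibitors have more called higher.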

How the data were processed

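RNA sequencing was done on 5 libraries of HCT116 cells. The authors deposited 1 table of FPKM per library. The tools named, per the submitters' processing notes, were Cufflinks 2.2.1, HISAT2 2.0.5, HTSeq 0.9.1 and Trimmomatic 0.36, and what each was used for was not said. Build, annotation and strandedness were not given in the sources used here. Each table repeats 2 date-like symbols among 27 rows that read as dates, none of them a gene named here. Tests covered the 11728 genes that reached 1 FPKM somewhere, by limma 3.58.1 (R 4.3.3, empirical Bayes with trend) on log2(FPKM + 1), with 1 mean per group over all 5 libraries. The 2 controls gave the 1 residual degree of freedom, beside 13.98 prior ones. Nothing says that the samples were separate cultures, so p-values reflect the spread between these samples alone, which can be technical. A fold on this scale understates the change of low genes. P-values were adjusted by Benjamini-Hochberg over all genes, at 0.05, in 7 comparisons.

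Whole reads were recovered from the FPKM with a tolerance of 0.02 reads for 28 of 28 genes. Intervals of a percent of control are exact conditional binomial ones at 95% and cover counting error alone. The genes of interest and the lists were chosen with earlier results of these data known. All 28 genes are named. Of each other list, the rule named, per comparison with the controls, the 2 largest differences past the threshold with a mean of at least 5 FPKM and 1 direction against each control. A result that this rule names is not reported here. Alternatives were a pseudocount of 0.1, a mean of at least 5 FPKM, no filter, median-ratio scaling, an additive model, and each control left out. Overlaps and pseudogenes come from GENCODE 29, and the files' own annotation may differ. Figures were drawn with matplotlib 3.10.9.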

Additional observations from a re-analysis of the deposited data

Results flagged for a closer look

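For 11 of the 28 genes the effect of 1 siRNA differed with and without the other, by limma's interaction term on log2(FPKM + 1), each at an adjusted p under 0.05. The values above 0 were 1.58 for NEU1, 0.78 for LAMP1, 0.44 for LAMP2, 0.40 for GM2A, 0.36 for GUSB and 0.24 for PSAP. The values below 0 were -1.20 for PPT1, -0.75 for CTSH, -0.60 for TPP1, -0.40 for GAA and -0.25 for CD63. Of all genes 39.5% passed the same test, and the library with both siRNAs and each single knockdown has no replicate.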

How the results depend on the processing

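No paired analysis was possible because the knockdown groups have 1 library each and carry no replicate number. With no filter the number of genes called went from 7666 to 2695 with the SP1 siRNA against control, 7225 to 1294 with the SP3 siRNA, 7387 to 1930 with both, 5566 to 947 for both against the SP1 siRNA, 3871 to 201 for both against the SP3 siRNA, 7353 to 2082 for the SP3 against the SP1 siRNA, and 4630 to 814 for the interaction. The prior degrees of freedom were then 0.712. The counts of the 28 genes called higher and lower became 3 and 0, 2 and 0, 2 and 0, 0 and 0, 0 and 0, 0 and 2, and 0 and 1 in the same order. A mean of at least 5 FPKM, which tests 7127 genes, left 5109 calls with the SP1 siRNA. The additive model left 900 calls with the SP1 siRNA and 1805 with the SP3 siRNA, and 2 higher and 1 lower, and 1 higher and 6 lower, of the 28. Median-ratio scaling gave 5 higher and 11 lower of the 28 with the SP1 siRNA, where 3453 and 4204 of 11680 genes were. It gave 6 lower of the 28 for both against the SP3 siRNA, where 2345 of 11680 genes were. Without control 1, a value with no test, 5 genes were at least 1.5-fold lower with the SP1 siRNA, and 3 as reported.

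Differences that changed sign did not pass in the setting named. In the additive model GUSB was at 0.0904, CTSL at -0.0791 and CLN3 at 0.0798 with the SP1 siRNA, and LAMP1 at 0.117 and GAA at -0.0908 with the SP3 siRNA. LAMP1 with the SP3 siRNA had been called lower. With median-ratio scaling, CTSD was at -0.0138, CTSL at -0.0875 and SCARB2 at -0.0986 with the SP1 siRNA. For both against the SP1 siRNA, HEXA was at 0.0533, GLA at 0.0588 and TPP1 at 0.0744. For both against the SP3 siRNA, GLA was at -0.0612, CTSB at -0.0205, CTSH at -0.0392, ASAH1 at -0.0410 and TPP1 at -0.0488. For the SP3 against the SP1 siRNA, GLA was at 0.120 and TPP1 at 0.123, and the interaction of GLB1 was at 0.0440. The causes were not tested. Over the 28 genes and all comparisons, a pseudocount of 0.1 ended 3 calls, scaling ended 17 and added 12, and no filter ended 108. The additive model kept 3 of 19 calls with the SP1 siRNA and 7 of 21 with the SP3 siRNA. Leaving out either control reversed no called difference among the 112 checked for the 28 genes. Differences that were not called could change sign. CTSL with the SP1 siRNA, at 0.03 as reported, was at 27.42 FPKM against 27.43 in control 2.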
